A study of Mus musculus with 22 samples.

Results

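The genes described here are 31 genes of glycolysis and of the transcriptional response to low oxygen, out of 23997 genes in the expression table of mouse colon. They were listed by name, as glycolytic enzymes and genes known to be induced by hypoxia, with earlier results of these data known. All 31 were in the table. By role they comprise 14 glycolytic enzymes, 3 genes of glucose and lactate transport and of the entry of pyruvate into mitochondria, 3 genes of oxygen sensing and 11 other hypoxia-induced genes. The series title asks about anti-inflammatory effects of deep sea water in the inflamed intestine. All mice were wild type BALB/c, entered the study at 5 weeks of age and drank their assigned water for 3 weeks. The CON group (n = 8, where n counts libraries throughout) drank distilled water with no further agent. The DSS group (n = 5) drank distilled water and, in the last 1 week, distilled water with 5% dextran sulfate sodium, a sulfated polymer that damages the colonic lining and causes colitis. Mice of HMLS (n = 4) drank one deep sea water and mice of TM (n = 5) another, both waters known only by those abbreviations in the labels, and 5% dextran sulfate sodium was added to the same water over the last 1 week. There was no group on deep sea water without dextran sulfate sodium, so the effect of either water on the uninjured colon was not measured. RNA came from whole colon, and libraries are named below by group and replicate number as in the labels (DSS5 is replicate 5 of DSS).

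Glycolysis splits glucose into pyruvate, and cells short of oxygen, or proliferating and inflamed cells, turn part of that pyruvate into lactate. The response to low oxygen is run by hypoxia-inducible factors (HIF), dimers of an oxygen-regulated alpha subunit such as that encoded by Hif1a and a stable partner encoded by Arnt. When oxygen is present, prolyl hydroxylases of the Egln family mark the alpha subunit for destruction, so Hif1a is controlled mainly at the protein level and its mRNA need not follow its activity. HIF binds short DNA sequences with the core ACGTG or GCGTG near its targets, which include glucose transporters, glycolytic enzymes, Vegfa, Car9 and Egln3 itself. The colonic surface is known for low oxygen even in health, because it borders the anaerobic lumen.

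Promoter sequences are shown for 5 members: Hk2, Vegfa, Car9 and Ddit4, whose DSS libraries all lay above every CON library, and P4ha1, whose DSS libraries all lay below. Each is a RefSeq window of build GRCm38.p6 from 250 bases before to 50 bases after a transcription start, written 5′ to 3′ on the gene's own strand. Capitals mark ACGTG or GCGTG on that strand, or their reverse complements CACGT and CACGC. The windows are chr6:82774405-82774704 (minus strand) for Hk2, chr17:46032328-46032627 (minus strand) for Vegfa, chr4:43506776-43507075 (plus strand) for Car9, chr10:59951721-59952020 (minus strand) for Ddit4 and chr10:59323046-59323345 (plus strand) for P4ha1.
Hk2: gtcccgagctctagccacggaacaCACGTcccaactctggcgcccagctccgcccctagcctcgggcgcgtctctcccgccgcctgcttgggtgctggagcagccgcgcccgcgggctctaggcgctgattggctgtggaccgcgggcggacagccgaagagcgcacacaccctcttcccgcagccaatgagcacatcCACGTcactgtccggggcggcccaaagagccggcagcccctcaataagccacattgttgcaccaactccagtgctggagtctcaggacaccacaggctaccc
Vegfa: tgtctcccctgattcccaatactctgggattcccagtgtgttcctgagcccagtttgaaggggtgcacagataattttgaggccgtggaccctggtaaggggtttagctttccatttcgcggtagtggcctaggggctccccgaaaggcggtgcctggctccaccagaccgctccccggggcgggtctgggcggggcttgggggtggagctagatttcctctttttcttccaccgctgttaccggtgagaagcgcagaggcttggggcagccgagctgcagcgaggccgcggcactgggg
Car9: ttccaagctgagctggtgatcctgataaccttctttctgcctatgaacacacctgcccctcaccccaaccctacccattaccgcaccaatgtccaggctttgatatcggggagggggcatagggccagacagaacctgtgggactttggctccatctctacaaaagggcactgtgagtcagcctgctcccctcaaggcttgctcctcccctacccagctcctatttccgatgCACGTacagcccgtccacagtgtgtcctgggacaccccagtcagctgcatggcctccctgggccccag
Ddit4: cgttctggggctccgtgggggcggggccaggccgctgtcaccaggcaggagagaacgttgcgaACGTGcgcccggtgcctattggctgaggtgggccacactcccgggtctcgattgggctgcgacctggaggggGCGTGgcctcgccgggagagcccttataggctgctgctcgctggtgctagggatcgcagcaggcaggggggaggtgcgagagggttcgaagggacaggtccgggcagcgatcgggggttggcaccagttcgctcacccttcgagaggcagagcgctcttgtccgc
P4ha1: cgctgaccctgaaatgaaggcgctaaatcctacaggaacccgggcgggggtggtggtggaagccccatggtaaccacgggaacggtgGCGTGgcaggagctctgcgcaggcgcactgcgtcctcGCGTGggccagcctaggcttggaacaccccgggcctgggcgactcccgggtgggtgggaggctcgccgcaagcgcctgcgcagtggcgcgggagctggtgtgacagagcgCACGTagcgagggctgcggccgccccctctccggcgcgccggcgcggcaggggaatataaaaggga
Hk2 held the core in reverse orientation at 226 and 52 bases before the start, both as CACGT. Car9 held 1 such match 18 bases before its start, Ddit4 held ACGTG at 187 and GCGTG at 115 bases before, and P4ha1 held GCGTG at 163 and 126 bases and CACGT at 16 bases before. The Vegfa window had none of these letters, while a second RefSeq window of Vegfa, at an inner start, had 2 matches. The member that fell thus held more matches in its window than any of the 4 that rose. The 5 genes were picked by their values, so their matches are a description only.

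Over the gene set, 30 of the 31 members were found among the RefSeq windows, with 40 windows in all, since some genes have several starts (Ndrg1 had no entry). ACGTG, on either strand, was present in 25 of the 40 windows (62.5%), against 19.6% of the 32851 windows of all genes. Counted by gene, 23 of the 30 members held it in any of their windows, a count that has no matching share over all genes here. ACGTG or GCGTG was present in 33 of the 40 windows (82.5%), against 43.8% of all windows, and in any window of 28 of the 30 members. CACGTG, the E-box that contains ACGTG on both strands, was in 4 of the 40, against 7.15% of all windows. The member windows were rich in CG, with a median of 23.5 CG pairs against 7 in all windows, and both cores contain CG. Among the 6563 windows of all genes with at least that many CG pairs, 29.3% held ACGTG and 75% held either core, while 16 of the 20 member windows that rich in CG held ACGTG. A match describes the letters in the window and does not show that HIF binds there.

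The 22 libraries held 48089882 to 68733410 reads. The share of reads mapped ran from 89.9% to 91.9% in CON, against 82.3% to 88.9% for DSS, 88.8% to 90.5% for HMLS and 89.5% to 92.7% for TM, so that the DSS libraries all had a lower mapped share than any CON library. Expression is given in FPKM (fragments scaled to transcript length and to the fragments mapped in the library), which allows levels to be compared between genes. No count per gene was used, so the number of reads behind a value is unknown and precision rests on the spread between libraries. Each difference below is a difference of means of log2(FPKM + 1) with its standard error (SE), tested with limma over all genes that 4 or more libraries of a fit held at 1 FPKM or above, and a gene was called at a Benjamini-Hochberg adjusted p under 0.05. A fold is that difference turned back to a ratio, and understates the change of genes near 1 FPKM. Defining epithelial markers were abundant in all groups: their 11 genes summed to between 4282 and 6967.9 FPKM in CON and to between 5791 and 8784.3 in the 14 colitis libraries.

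All 31 members passed the filter in every comparison, and 29 had at least 1 FPKM in every library, the exceptions being Slc16a3 and Ankrd37. Group means ran from 1.9 FPKM (Slc16a3 in HMLS) to 743 FPKM (Aldoa in DSS). In DSS against CON, 15 members were higher and 1 was lower, against a background of 14% of the 13483 tested genes called higher and 13.1% called lower (27.1% in all). The median log2 difference of the members was 0.40, against -0.01 over all tested genes. In HMLS against CON, 6 members were higher and 3 lower, where 17.5% and 16.6% of 13400 genes were called higher and lower (34.1% in all), and the members' median was 0.18 against 0.00. In TM against CON, 10 members were higher and 3 lower, where 14.3% and 11.8% of 13485 genes were called higher and lower (26% in all), and the members' median was 0.31 against 0.01. The 3 comparisons share the CON libraries. Ddit4, Hk2, Ndrg1 and Slc2a1 were higher in all 3, and P4ha1 was lower in all 3. The 10 members Pfkl, Pfkp, Aldoa, Tpi1, Pgk1, Ldha, Pdk1, Egln1, Ankrd37 and Hif1a were called in none. The shares of all genes called in all 3 or in none are not given here, so these counts only describe the members.

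**Figure D1:**
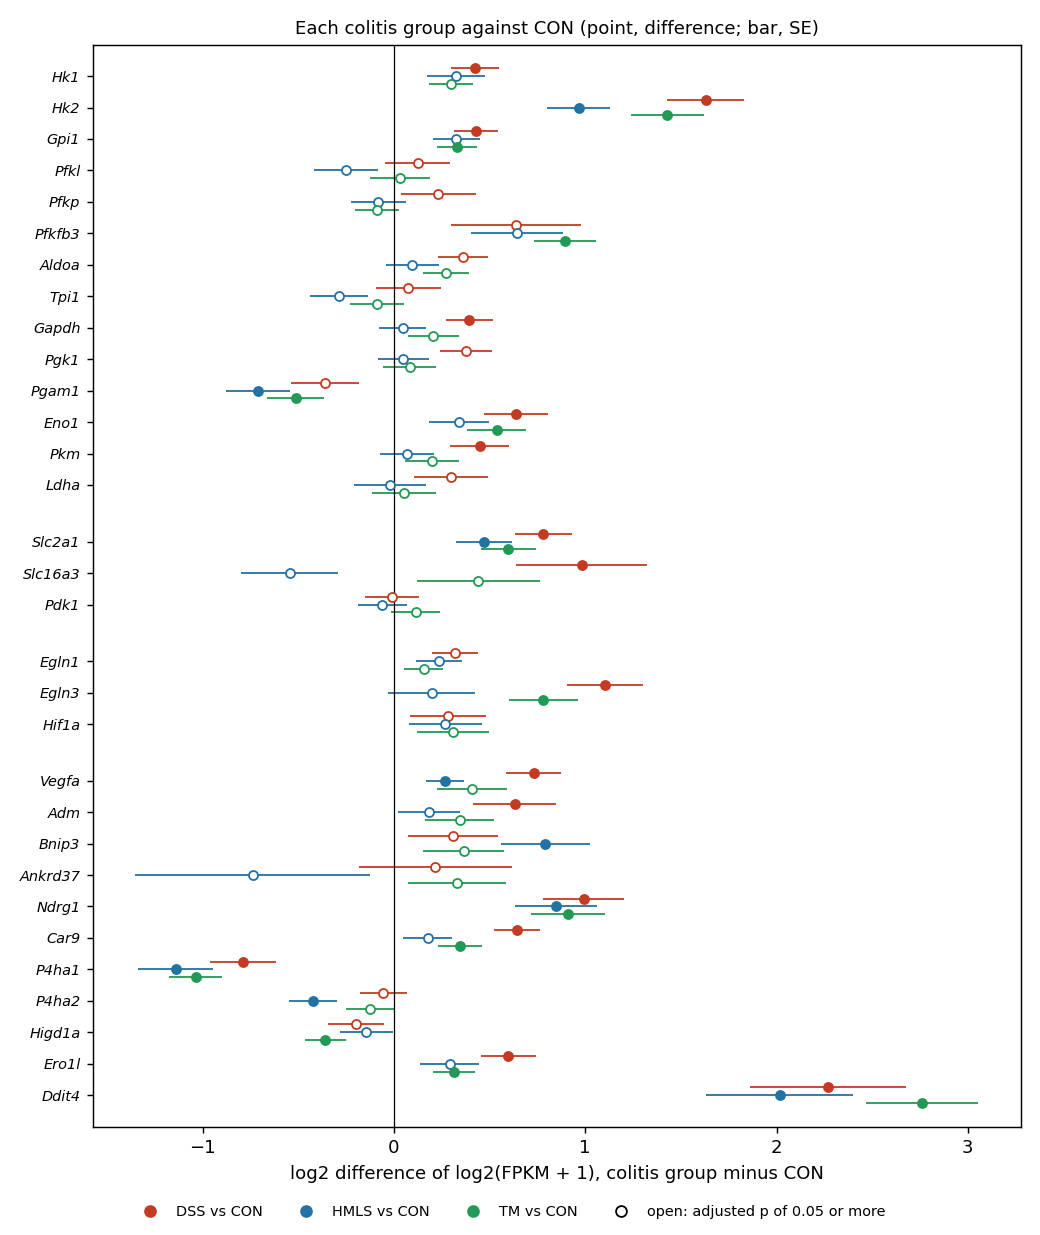
Difference of mean log2(FPKM + 1) of each colitis group minus CON (x axis, log2 units; bars, SE) for the 31 genes, from top to bottom glycolytic enzymes, transport and pyruvate entry, oxygen sensing and other hypoxia-induced genes. Filled points passed an adjusted p of 0.05 and open points did not; Ddit4 and Hk2 lie farthest to the right and P4ha1 is left of 0 in all 3 comparisons.

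Fewer members were called in DSS in 2 fits that took the mapped share into account. Without DSS6 and DSS7, the 2 DSS libraries of lowest mapped share (85.1% and 82.3%, the other 3 at 88% to 88.9%), 7 members remained called higher (Hk2, Slc2a1, Egln3, Vegfa, Ndrg1, Car9 and Ddit4) and P4ha1 lower, while the genes called fell from 3655 to 2079 with 3 DSS libraries in place of 5. With the mapped share as a covariate, 26 genes were called in DSS against CON and none of them was a member; because the 2 groups do not overlap in mapped share, the covariate and the group cannot be told apart. Of the 16 members called without it, the log2 differences that moved least in proportion were those of Car9 (0.71 against 0.64), P4ha1 (-0.82 against -0.79), Ndrg1 (0.84 against 0.99) and Egln3 (0.88 against 1.10), at adjusted p of 0.143 to 0.275. In that fit the log2 difference of Hk2 was 1.18 (adjusted p = 0.118), that of Ddit4 1.69 (adjusted p = 0.247) and that of Vegfa 0.27 (adjusted p = 0.493). In HMLS against CON, whose mapped shares overlap, the same covariate left 3 members called higher (Hk2, Ndrg1 and Ddit4), ended the call of P4ha2 (-0.47, adjusted p = 0.0543) and brought Slc16a3 past the threshold as lower (-1.005, adjusted p = 0.0201). In TM against CON it ended the calls of Car9 and Ero1l (adjusted p = 0.0545 and 0.0756) and brought Hk1 past the threshold (0.35, adjusted p = 0.0344). Markers of other cell types moved as well. The summed level of 9 neutrophil markers was 1.01 to 2.66 FPKM in CON, against 3.04 to 75.9 for DSS, 2.48 to 24.6 for HMLS and 6.02 to 99.6 for TM. Only S100a8, S100a9 and Retnlg passed the filter in DSS against CON. Each was under 1 FPKM in every CON library, so they passed through the DSS libraries alone and their calls as higher add nothing to the sums. The granule genes Camp and Mpo stayed under 1 FPKM in all libraries. The 7 fibroblast markers summed to 257 to 402 FPKM in CON and 84.8 to 224 in DSS, with 6 of the 7 lower in DSS. Also called lower in DSS were 5 of 7 tested adipocyte markers, 4 of 7 endothelial, 3 of 8 smooth muscle, 2 of 6 B cell and 2 of 9 macrophage markers, and called higher were 3 of 11 epithelial ones. In HMLS 6 of 7 fibroblast, 5 of 9 macrophage, 4 of 7 endothelial, 3 of 6 B cell and 2 of 3 tested red blood cell markers were lower. In TM 6 of 7 adipocyte, 4 of 8 smooth muscle, 3 of 7 fibroblast, 1 of 7 endothelial and 1 of 9 macrophage markers were. Called higher were 3 of 11 epithelial and 1 of 7 adipocyte markers in HMLS, and 4 of 11 epithelial and 1 of 9 macrophage markers in TM. Over all tested genes 13.1%, 16.6% and 11.8% were lower in DSS, HMLS and TM, and 14%, 17.5% and 14.3% higher. The part of these cell types in the members' differences was not tested, and in whole colon a change in the number of cells of a type cannot be told apart from a change of RNA per cell.

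Among the glycolytic enzymes the hexokinase Hk2 stood out. Hexokinases make the first commitment of glucose by adding a phosphate to it, and Hk2 is the form known for induction by HIF and growth signals. Hk2 (chr6:82725025-82774454, GRCm38, minus strand) was at 14.2 to 25.2 FPKM in CON, with a median of 19.3. In DSS it was at 46.1, 51, 80.2, 40 and 101 FPKM in DSS1, DSS2, DSS5, DSS6 and DSS7. In HMLS it was at 37.5, 45.1, 25.1 and 45.8 FPKM in HMLS3, HMLS6, HMLS7 and HMLS8, and in TM at 64.9, 78.4, 35.3, 35 and 59.7 FPKM in TM3, TM5, TM6, TM7 and TM8. Every DSS and TM library lay above every CON library, and in HMLS only HMLS7 reached down to the highest CON library. The log2 difference from CON was 1.63 ± 0.20 (SE) in DSS, a 3.09-fold level (limma adjusted p = 0.000318). It was 0.97 ± 0.17 in HMLS (adjusted p = 0.000954) and 1.43 ± 0.19 in TM (adjusted p = 0.000291). Hk1, the constitutive hexokinase, was called in DSS with a log2 difference of 0.42 (adjusted p = 0.0248), and this call ended without DSS2 or DSS7 (adjusted p 0.0588 and 0.0686). Hk1 was not called in HMLS (0.32, adjusted p = 0.11) or TM (0.30, adjusted p = 0.068), though leaving out HMLS8 or CON7 brought it under the threshold there (adjusted p = 0.0283 and 0.0343).

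The steps after hexokinase moved less, and not together. Gpi1, which turns glucose 6-phosphate into fructose 6-phosphate, rose in DSS, to 173 ± 21.5 FPKM (SD, n = 5) against 128 ± 18.8 in CON (n = 8; log2 difference 0.43 ± 0.12, limma adjusted p = 0.0145). Its log2 difference was 0.33 in both HMLS (adjusted p = 0.0524) and TM (adjusted p = 0.0307). The TM call ended without any 1 of CON2, CON4, CON5, TM6, TM7 and TM8 (adjusted p up to 0.0705), and the HMLS value passed without CON7, CON8 or HMLS8 (adjusted p down to 0.0159). The phosphofructokinases Pfkl and Pfkp, which carry the rate-limiting step, were not called in any comparison; Pfkl was at 51.6 ± 9.26 FPKM in CON and 57.6 ± 17.4 in DSS, 43.9 ± 12.8 in HMLS and 53.6 ± 15.1 in TM. Pfkfb3, which makes the strongest activator of phosphofructokinase, was the least abundant enzyme of the set. It was at 1.17 to 2.79 FPKM in CON and at 4.62, 5.83, 3.47, 4.11 and 4.18 FPKM in TM3, TM5, TM6, TM7 and TM8, all above CON. Pfkfb3 rose in TM by a log2 difference of 0.90 ± 0.16 (adjusted p = 0.00165). In HMLS its difference was 0.64 (adjusted p = 0.0505), and it passed without CON3, CON6, CON8 or HMLS7 (adjusted p down to 0.0047). In DSS it ranged from 1.41 FPKM in DSS2 to 12.2 in DSS7 and was not called.

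Of the later steps, Aldoa, Tpi1, Gapdh, Pgk1, Pgam1, Eno1, Pkm and Ldha were abundant, between 89.9 and 743 FPKM as group means. Gapdh, which makes the first energy-rich intermediate, was at 477 ± 69.9 FPKM in CON and 625 ± 77.6 in DSS and was called there (log2 difference 0.40, limma adjusted p = 0.0284). Its call ended without CON2, DSS1 or DSS7 (adjusted p up to 0.0686). Eno1, the enolase, rose in DSS by 0.64 ± 0.17 (adjusted p = 0.0128) and in TM by 0.54 ± 0.16 (adjusted p = 0.0203), and had a difference of 0.34 in HMLS (adjusted p = 0.104; 0.0328 without CON8). Eno1 is uncertain, because reads can be shared with Eno1b, a near-identical copy without introns, which was listed at 25.3 to 68.2 FPKM and followed it; pseudogene copies of other glycolytic enzymes exist too. Pkm, the pyruvate kinase of most tissues, was called in DSS (0.45, adjusted p = 0.0438), and the call ended in 10 of 13 fits that left out 1 library (CON1, CON2, CON3, CON5, CON6, CON7, DSS1, DSS2, DSS6 or DSS7; adjusted p 0.0545 to 0.0975). Aldoa (0.36, adjusted p = 0.0544) and Pgk1 (0.38, adjusted p = 0.0515) missed the threshold in DSS; Aldoa passed without CON8 and Pgk1 without CON1 or DSS5 (adjusted p = 0.0116, 0.0414 and 0.0132). Aldoa had a difference of 0.27 in TM (adjusted p = 0.109; 0.0169 without CON8).

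Pgam1, the phosphoglycerate mutase between Pgk1 and Eno1, went the other way. It was at 113 to 183 FPKM in CON with a median of 147, and at 68.7, 100, 122 and 68.1 FPKM in HMLS3, HMLS6, HMLS7 and HMLS8. In TM it was at 148, 82.6, 107, 86.1 and 88.4 FPKM, and in DSS at 136, 149, 71.4, 137 and 85.8 FPKM, in the order of the replicate numbers given for Hk2. All groups overlapped CON, and the low libraries of DSS were DSS5 and DSS7. Pgam1 fell by 0.71 on the log2 scale in HMLS (SE 0.17, limma adjusted p = 0.00546) and by 0.51 in TM (SE 0.15, adjusted p = 0.0209), and was not called in DSS. The TM call ended without TM5, TM7 or TM8 (adjusted p up to 0.0647). Ldha, which turns pyruvate into lactate, was not called, with 376 ± 86.7 FPKM in CON, and 472 ± 145, 376 ± 106 and 392 ± 97.6 for DSS, HMLS and TM. Of the 14 enzymes, 6 rose and none fell in DSS (Hk1, Hk2, Gpi1, Gapdh, Eno1 and Pkm), 1 rose and 1 fell in HMLS, and 4 rose and 1 fell in TM.

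**Figure D2:**
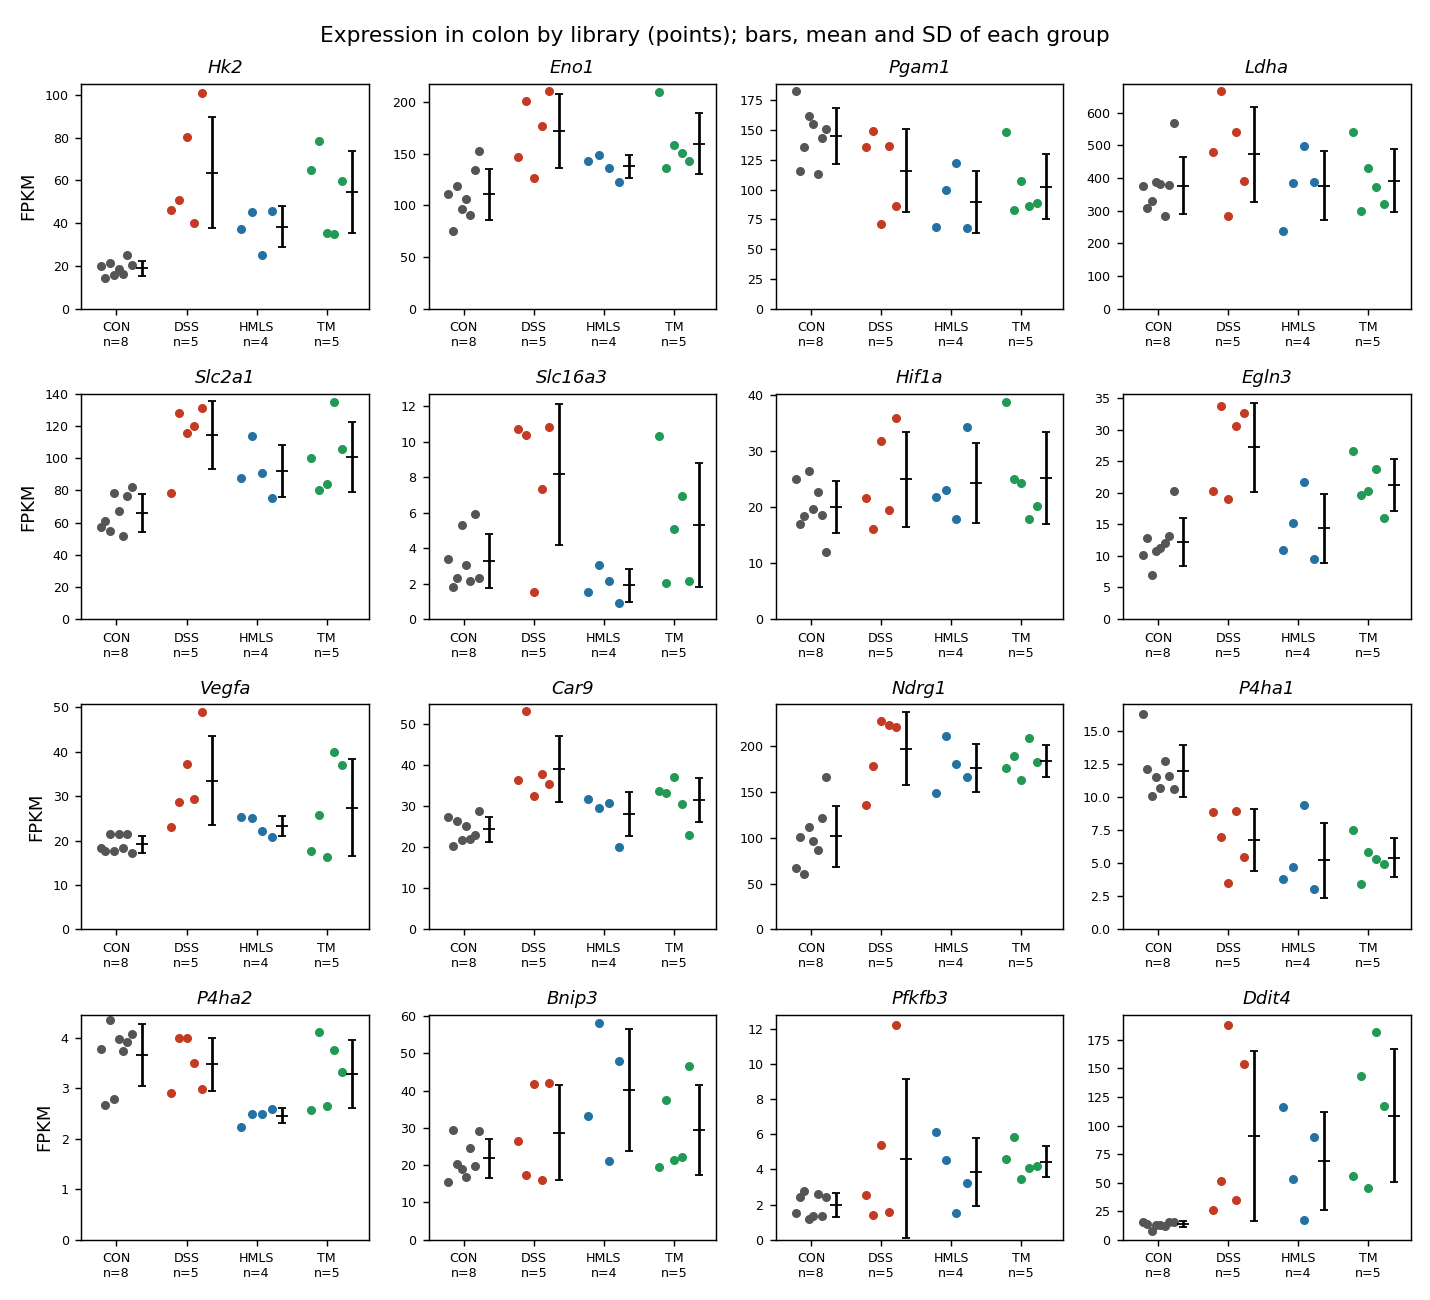
FPKM (y axis, linear from 0) in each library (points) of 16 of the genes by group, with mean and SD as bars. Ddit4 in the 14 colitis libraries lies above, and P4ha1 below, every CON library, whereas Hif1a and Ldha overlap between all groups.

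Of the transport genes, Slc2a1, the basal glucose transporter GLUT1, rose in all 3 colitis groups. It was at 51.9 to 82.1 FPKM in CON with a median of 64.1. In DSS1, DSS2, DSS5, DSS6 and DSS7 it was at 78.5, 128, 116, 120 and 131 FPKM, so that only DSS1 lay within the range of CON. The log2 difference was 0.78 ± 0.15 in DSS (limma adjusted p = 0.00241), 0.47 ± 0.15 in HMLS (adjusted p = 0.0212) and 0.60 ± 0.14 in TM (adjusted p = 0.00788). The HMLS call ended without HMLS6 (adjusted p = 0.0797). Slc16a3, the lactate exporter MCT4, was scarce and uneven within DSS. It was at 10.7, 10.4, 1.55, 7.34 and 10.8 FPKM in DSS1, DSS2, DSS5, DSS6 and DSS7, against 1.8 to 5.9 in CON and 0.88 to 3.07 in HMLS. Its log2 difference from CON was 0.98 in DSS (adjusted p = 0.0468), a call that ended in 10 of 13 fits without 1 library (CON1, CON2, CON3, CON5, CON6, CON8, DSS1, DSS2, DSS6 or DSS7; adjusted p 0.0646 to 0.12). In HMLS the difference was -0.55 (adjusted p = 0.109), and -1.005 with the mapped share as a covariate (adjusted p = 0.0201). Pdk1, which keeps pyruvate out of the mitochondrial oxidation route, stayed between group means of 12.7 and 14.5 FPKM and was not called.

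Of the 3 oxygen-sensing genes, Egln3 was called in DSS and TM and none was called in HMLS. Egln3 encodes the prolyl hydroxylase PHD3, itself a known HIF target. It was at 7.02 to 20.3 FPKM in CON with a median of 11.7, at 20.2, 33.7, 19, 30.6 and 32.6 FPKM in DSS and at 26.6, 19.7, 20.2, 23.7 and 16 FPKM in TM, in replicate order. In HMLS3, HMLS6, HMLS7 and HMLS8 it was at 11, 15.2, 21.7 and 9.46 FPKM. The DSS libraries thus began near the highest CON library, CON8, whereas the HMLS libraries overlapped CON, with HMLS7 alone above the highest CON library. Egln3 rose by 1.10 ± 0.20 in DSS (limma adjusted p = 0.00193) and by 0.78 ± 0.18 in TM (adjusted p = 0.00651), and its difference in HMLS was 0.20 ± 0.23 (adjusted p = 0.521; -0.013 without HMLS7). Egln1, the main hydroxylase of HIF in normal oxygen, had a log2 difference of 0.32 in DSS (adjusted p = 0.0572), which passed without CON7, CON8 or DSS1 (adjusted p down to 0.0149). Hif1a was at 19.9 ± 4.65 FPKM in CON, against 24.9 ± 8.44, 24.3 ± 7.04 and 25.2 ± 8.15 for DSS, HMLS and TM. Its log2 differences of 0.28, 0.27 and 0.31 (adjusted p = 0.298, 0.286 and 0.234) were not called, and the groups overlapped.

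Among the other hypoxia-induced genes, Ddit4 showed the largest differences of the whole gene set. Ddit4 encodes REDD1, an inhibitor of mTOR signalling that is induced by low oxygen, by stress and by glucocorticoids. The gene (chr10:59949669-59951834, GRCm38, minus strand) was at 7.98 to 15.9 FPKM in CON with a median of 13.6. It was at 25.8, 51.4, 188, 34.8 and 154 FPKM in DSS1, DSS2, DSS5, DSS6 and DSS7, at 116, 53.4, 17.6 and 89.9 FPKM in HMLS3, HMLS6, HMLS7 and HMLS8, and at 56.1, 143, 44.9, 182 and 117 FPKM in TM3, TM5, TM6, TM7 and TM8. All 14 colitis libraries lay above every CON library, and within each colitis group the libraries differed by several-fold. The log2 difference was 2.27 ± 0.41 in DSS (4.82-fold, limma adjusted p = 0.00226), 2.02 ± 0.38 in HMLS (4.05-fold, adjusted p = 0.00247) and 2.76 ± 0.29 in TM (6.78-fold, adjusted p = 9.34e-05). In DSS against CON, 4 members lay wholly above CON (Hk2, Vegfa, Car9 and Ddit4), where 4.13% of tested genes did so, and 1 wholly below (P4ha1), where 3.72% did. In HMLS 1 member lay wholly above (Ddit4; background 7.81%) and 2 below (P4ha1 and P4ha2; 7.21%), and in TM 3 above (Hk2, Pfkfb3 and Ddit4; 4.66%) and 1 below (P4ha1; 3.4%).

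Ndrg1, a stress-response gene of differentiating epithelium known to be induced by hypoxia, rose in all 3 groups. It was at 60.2 to 166 FPKM in CON, at 136, 179, 228, 223 and 221 FPKM in DSS and between 149 and 211 in HMLS and TM. Its log2 difference was 0.99 ± 0.21 in DSS (limma adjusted p = 0.00485), 0.85 ± 0.22 in HMLS (adjusted p = 0.00852) and 0.91 ± 0.19 in TM (adjusted p = 0.00424), and CON8 was the only CON library within the range of the colitis libraries. Vegfa, the growth factor of blood vessels and a classical HIF target, was at 17.1 to 21.5 FPKM in CON and at 23, 28.7, 37.3, 29.4 and 49 FPKM in DSS. Vegfa rose by 0.73 ± 0.14 in DSS (adjusted p = 0.00298) and was called in HMLS at 0.27 (adjusted p = 0.048), a call lost in 8 of 12 fits without 1 library (CON1, CON2, CON4, CON6, CON8, HMLS3, HMLS6 or HMLS7; adjusted p up to 0.121). In TM its 5 libraries split, at 17.7, 25.8, 16.4, 40 and 37.1 FPKM, and the difference of 0.41 was not called (adjusted p = 0.111; it passed without TM3 or TM6, adjusted p = 0.0321 and 0.0265). Car9, a carbonic anhydrase of the cell surface that exports acid under hypoxia, was at 20.3 to 28.8 FPKM in CON and 36.3, 53, 32.5, 37.7 and 35.4 FPKM in DSS. Car9 rose by 0.64 ± 0.12 in DSS (adjusted p = 0.00225). It was called in TM at 0.35 (adjusted p = 0.0362), which ended in 8 of 13 fits without 1 library (CON2, CON4, CON6, CON7, TM3, TM5, TM6 or TM7; adjusted p up to 0.0952).

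Ero1l, Adm and Bnip3 were each called in 1 or more groups. Ero1l, which forms disulfide bonds in the endoplasmic reticulum, rose in DSS, to 29.6 ± 7.62 FPKM against 18.8 ± 2.57 in CON (log2 difference 0.60 ± 0.14, limma adjusted p = 0.00839). It was called in TM at 0.31 (adjusted p = 0.046), lost in 10 of 13 fits without 1 library (CON1, CON2, CON3, CON4, CON5, CON7, TM3, TM5, TM6 or TM7; adjusted p up to 0.108). The vasodilator peptide gene Adm was called in DSS at 0.63 (adjusted p = 0.0438), lost in 10 of 13 such fits (CON1, CON2, CON3, CON4, CON5, CON6, CON8, DSS5, DSS6 or DSS7; adjusted p up to 0.129). Bnip3, which directs mitochondria to autophagy, was called in HMLS: it was at 33.3, 58.2, 21.2 and 47.9 FPKM in HMLS3, HMLS6, HMLS7 and HMLS8 against 15.6 to 29.3 in CON (0.79 ± 0.23, adjusted p = 0.0184). That call ended without HMLS6 or HMLS8 (adjusted p = 0.0654 and 0.0725), and without HMLS6 the count of members called higher in HMLS fell from 6 to 3. Ankrd37 ranged from 0.97 FPKM in HMLS3 to 38.5 in DSS2, and was not called.

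The collagen prolyl hydroxylases P4ha1 and P4ha2, both known HIF targets, were lower where they were called. P4ha1, the main catalytic subunit, was at 10.1 to 16.3 FPKM in CON with a median of 11.6. It was at 8.86, 7, 3.49, 8.91 and 5.47 FPKM in DSS1, DSS2, DSS5, DSS6 and DSS7, at 3.78, 4.71, 9.37 and 3.05 FPKM in HMLS3, HMLS6, HMLS7 and HMLS8, and at 7.51, 3.46, 5.81, 5.32 and 4.91 FPKM in TM3, TM5, TM6, TM7 and TM8. All 14 colitis libraries lay below every CON library. P4ha1 fell by 0.79 on the log2 scale in DSS (SE 0.17, limma adjusted p = 0.00541), by 1.14 in HMLS (SE 0.20, adjusted p = 0.000983) and by 1.03 in TM (SE 0.14, adjusted p = 0.000291). P4ha2, the second such subunit, was at 2.24, 2.49, 2.5 and 2.58 FPKM in HMLS, below every CON library (2.66 to 4.35), and fell there by 0.42 (SE 0.13, adjusted p = 0.0181). Collagen is made largely by fibroblasts, whose 7 markers summed to 116 to 161 FPKM in HMLS and 126 to 493 in TM, against 257 to 402 in CON. Their part in the fall of P4ha1 was not tested. Higd1a, a mitochondrial protein that supports respiration, fell by 0.36 in TM (SE 0.11, adjusted p = 0.0226; 0.0725 without TM5). Without TM5 the members called lower in TM fell from 3 to 1.

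Genes of the same pathways outside the set were described in 3 further lists. Of 37 tested further genes of glycolysis and glucose metabolism, 5 rose and 3 fell in DSS, 5 rose and 3 fell in HMLS, and of 36 in TM 3 rose and 5 fell. That is 21.6%, 21.6% and 22.2% called, below the 27.1%, 34.1% and 26% of all tested genes. Pgd, the oxidative enzyme of the pentose phosphate route, rose in all 3 groups, by 1.23 ± 0.21 in DSS (limma adjusted p = 0.00154), 1.09 ± 0.21 in HMLS (adjusted p = 0.0017) and 1.02 ± 0.19 in TM (adjusted p = 0.00202). Bpgm, which diverts a glycolytic intermediate to bisphosphoglycerate, rose by 0.60 in DSS, 0.49 in HMLS and 0.67 in TM. Slc5a1, the sodium-coupled glucose transporter of the gut, rose by 0.49 in DSS. Pck1, of glucose synthesis, fell by 0.65 in DSS and by 0.74 in HMLS. In HMLS Pdk4, another brake on pyruvate oxidation, rose by 1.20 ± 0.28 (adjusted p = 0.00627) and the ADP-dependent glucokinase Adpgk fell by 0.48. The pyruvate carrier Mpc2 fell by 0.42 in DSS, 0.38 in HMLS and 0.59 in TM, and the muscle enolase Eno3 by 0.70 in DSS and 0.90 in TM.

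Of 15 HIF pathway regulators, 5 rose and none fell in DSS, 7 rose and none fell in HMLS, and 4 rose and 1 fell in TM. That is 33.3%, 46.7% and 33.3% called, where 27.1%, 34.1% and 26% of all tested genes were. Arnt, the partner of HIF alpha subunits, went from 9.59 ± 1.31 FPKM in CON to 14.7 ± 4.72 in DSS, 15.6 ± 2.5 in HMLS and 15.3 ± 2.29 in TM (log2 differences 0.53, 0.64 and 0.63, limma adjusted p = 0.0217, 0.00156 and 0.00133). Hif3a, an alpha subunit that can restrain the others, rose by 1.13 in DSS, 0.87 in HMLS and 1.11 in TM, from 2.21 ± 0.659 FPKM in CON to 6.77 ± 4.2 in DSS. Egln2, the third prolyl hydroxylase, rose by 0.53 in both DSS and TM and by 0.39 in HMLS. Crebbp, a coactivator of HIF, rose by 0.40 in DSS and 0.36 in HMLS. Hif1an, the asparagine hydroxylase that blocks coactivator binding, rose by 0.53 in HMLS and 0.47 in TM, and Cited2, which competes for the same coactivators, rose by 0.36 in HMLS. Siah2, a ubiquitin ligase that acts on the prolyl hydroxylases, fell by 0.39 in TM.

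Of 33 tested other HIF-induced genes, 6 rose and 4 fell in DSS and 8 rose and 6 fell in HMLS, and of 34 in TM 5 rose and 2 fell. That is 30.3%, 42.4% and 20.6% called, where 27.1%, 34.1% and 26% of all tested genes were. The DSS share was thus near that of all genes and the TM share below it. Bhlhe40, a circadian and hypoxia-responsive repressor, rose by 1.21 ± 0.21 in DSS (limma adjusted p = 0.00176), 0.74 in HMLS and 0.78 in TM. Fam162a, of mitochondria, rose by 0.68 in DSS, 0.86 in HMLS and 0.73 in TM, and the histone demethylase Kdm3a by 0.53 in DSS, 0.72 in HMLS and 0.49 in TM. Plod2, a collagen lysyl hydroxylase, fell by 0.49 in DSS, 0.69 in HMLS and 0.45 in TM, and Trf, which encodes transferrin, fell by 1.19 in DSS and 0.97 in TM. Lox, which crosslinks collagen, rose by 0.84 in TM. In HMLS the lipid droplet gene Hilpda fell by 0.83 (adjusted p = 0.000364), whereas the drug transporter gene Abcb1a rose by 0.93 and the endothelin gene Edn1 by 0.74.

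The next comparisons asked whether either deep sea water changed these genes in colitis. In HMLS against DSS, 0 of 13341 genes were called by limma (0%), and 740 (5.55%) had an unadjusted p under 0.05. Of the 31 members, 28 had a negative difference, with a median of -0.32 against 0.00 over all genes. The 8 members with an unadjusted p under 0.05 were all lower in HMLS, where 2.6% of genes were lower at that level, but none held after adjustment (adjusted p = 0.849 for each). They were Slc16a3 (log2 difference -1.53 ± 0.48, unadjusted p = 0.006), Egln3 (-0.91 ± 0.23, unadjusted p = 0.00153), Hk2 (-0.66 ± 0.30), Car9 (-0.47 ± 0.17), Pkm (-0.38 ± 0.16), P4ha2 (-0.37 ± 0.14), Gapdh (-0.35 ± 0.14) and Aldoa (-0.26 ± 0.12). Gapdh was at 529, 505, 475 and 445 FPKM in HMLS and at 726, 615, 530, 578 and 675 in DSS, so the groups lay just apart, and Car9 and P4ha2 did not overlap either (3 members wholly lower, where 0.607% of genes were). Cell type markers differed in the same comparison without any being called: all 8 tested macrophage markers were negative (2 at an unadjusted p under 0.05), and all 8 smooth muscle and 7 adipocyte markers were positive. Macrophage markers summed to 16 to 55.7 FPKM in HMLS, 29.8 to 71.7 in DSS and 70.2 to 115 in TM, and their part in the members' differences was not tested. Slc2a1 (-0.31, adjusted p = 0.85), Vegfa (-0.46, adjusted p = 0.849) and Hif1a (-0.02, adjusted p = 0.993) were not called either.

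In TM against DSS, 0 of 13341 genes were called by limma (0%), 367 (2.75%) had an unadjusted p under 0.05 and no member did. The differences were negative for 25 of the 31 members with a median of -0.16 against 0.00 over all genes. Those of Hk2, Slc2a1, Egln3 and Vegfa were -0.20 ± 0.29, -0.18 ± 0.17, -0.32 ± 0.22 and -0.32 ± 0.24, and that of Hif1a was 0.03 ± 0.24 (adjusted p = 1 for each). In HMLS against TM, again 0 genes were called by limma (0%), 1260 (9.44%) had an unadjusted p under 0.05, and of the members only Egln3 did, lower in HMLS where 4.48% of genes were (-0.58 ± 0.23, unadjusted p = 0.0253, adjusted p = 0.482). In that comparison 6 of 8 macrophage and 5 of 6 B cell markers were lower at an unadjusted p under 0.05, and their part was not tested either. Leaving out HMLS3 brought 1 gene past the threshold in HMLS against DSS and 3 in HMLS against TM. The other differences were -0.46 for Hk2, -0.13 for Slc2a1, -0.14 for Vegfa and -0.04 for Hif1a. The 3 colitis groups enter these comparisons together, and HMLS and TM are set against the same DSS libraries. As plain levels, the group mean was highest in DSS among the 3 colitis groups for 26 of the 31 members and lowest in HMLS for 24, and no member passed the adjusted threshold in any comparison between these groups. The mapped share was 82.3% to 88.9% in DSS, against 88.8% to 90.5% in HMLS and 89.5% to 92.7% in TM. With it as a covariate, HMLS minus DSS was -0.25 for Hk2, -0.17 for Slc2a1 and -0.09 for Vegfa, but -0.75 for Egln3 and -0.55 for Car9. TM minus DSS was then 0.42 for Hk2, 0.02 for Slc2a1, 0.23 for Vegfa and -0.09 for Egln3. The part of the mapped share in the order of the group means was not tested.

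**Figure D3:**
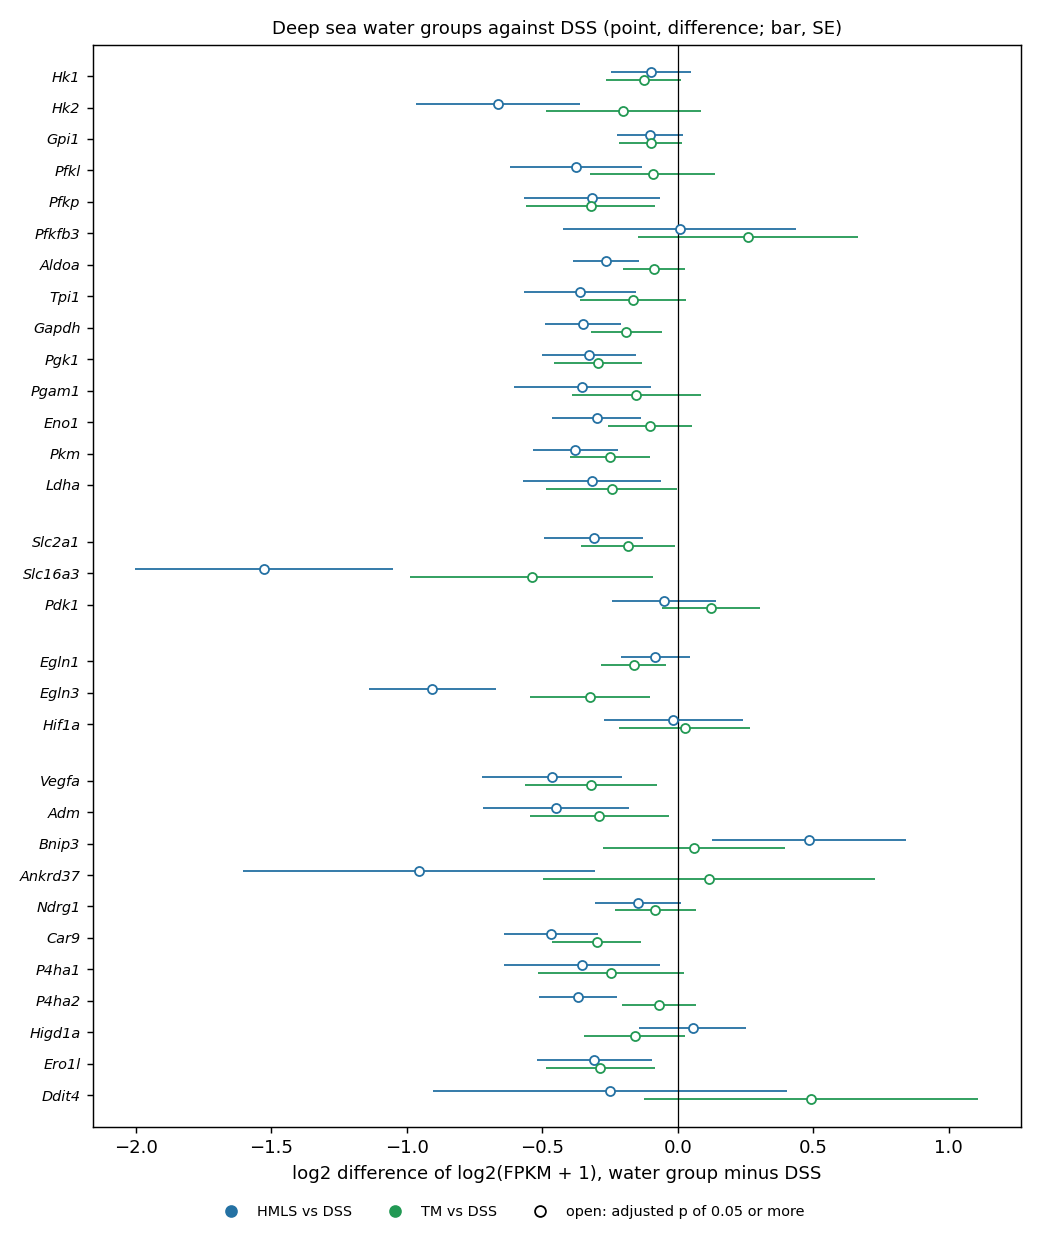
Difference of mean log2(FPKM + 1) of HMLS and TM minus DSS (x axis, log2 units; bars, SE) for the 31 genes, in the same order as in the plot against CON. All points are open, none having passed an adjusted p of 0.05, and 28 HMLS and 25 TM points lie left of 0.

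The members did not move as 1 block within the colitis groups. Over the 14 colitis libraries, with each group's mean removed and values permuted within groups (100000 permutations, two-sided), 11 of the 465 pairs of members had a Pearson correlation with a Benjamini-Hochberg adjusted p under 0.05, 8 of them positive and 3 negative. The matching share over pairs of all genes was not computed. Among the positive pairs Pgam1 followed Ldha (r = 0.89, rho = 0.82, permutation p = 0.00007, adjusted p = 0.0151) and P4ha1 (r = 0.89, rho = 0.91, permutation p = 0.00013, adjusted p = 0.0151). Without the 2 libraries farthest from the median of Pgam1 these were 0.82 and 0.85. All 3 negative pairs contained Ddit4, which ran against Pgam1 (r = -0.90, rho = -0.86, permutation p = 0.00056, adjusted p = 0.026), P4ha1 (r = -0.88, rho = -0.86, permutation p = 0.00038, adjusted p = 0.0248) and Pfkp (r = -0.85, rho = -0.89, permutation p = 0.00007, adjusted p = 0.0151). Without the 2 farthest libraries they were -0.90, -0.81 and -0.87. By Spearman's rho the adjusted p was under 0.05 for Pgam1 with P4ha1 (0.0248) and for Pfkp with Ddit4 (0.00465), and between 0.0568 and 0.0781 for the other pairs. These are correlations of group-centred values, and plain levels followed them only in part. Of the libraries with the most Ddit4, DSS5 and TM5 had little P4ha1 (3.49 and 3.46 FPKM), whereas DSS7 and TM7 were in the middle (5.47 and 5.32 FPKM). The lowest P4ha1 and Pgam1 of the 14 were in HMLS8 (3.05 and 68.1 FPKM). HMLS7, lowest in Ddit4 of the 14, had the most P4ha1. Both values of a pair come from the same library and the same scaling. The mapped share correlated with none of the 31 members at an adjusted p under 0.05 (31 relations).

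**Figure D4:**
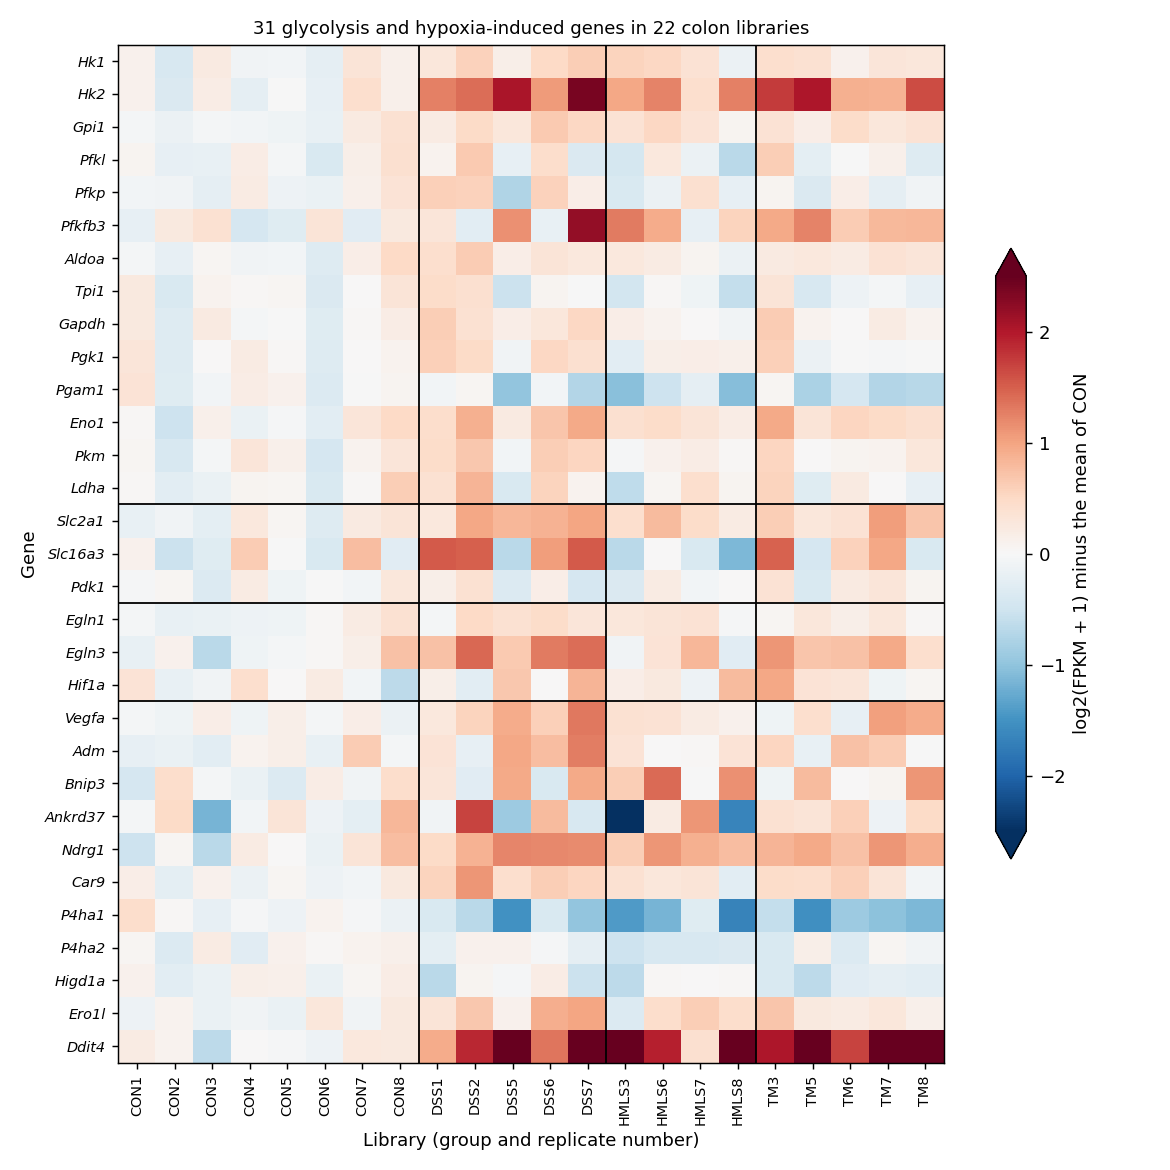
log2(FPKM + 1) minus the mean of CON (colour, red higher and blue lower, saturating at the ends of the bar) for the 31 genes in rows and the 22 libraries in columns, with lines between groups and roles. Ddit4, Hk2 and Ndrg1 are red in nearly all colitis columns and P4ha1 is blue, while Slc16a3, Ankrd37 and Pfkfb3 differ between libraries of the same group.

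Fkbp5, a cochaperone gene known as a sensitive target of the glucocorticoid receptor, was set beside the members after their values had been seen. The p-values below do not account for that choice among all genes, so the correlations with Fkbp5 are a description only. It was at 31.1 to 88.7 FPKM in CON, against 69 to 358 for DSS, 64.4 to 364 for HMLS and 86 to 289 for TM. Over the 14 colitis libraries with group means removed, Ddit4 followed Fkbp5 with r = 0.98 and rho = 0.98 (permutation p = 1e-05, the smallest that 100000 permutations can give; adjusted p = 0.00031 over 31 relations), and with r = 0.97 without HMLS7 and DSS1. In total 8 members had an adjusted p under 0.05 with Fkbp5: Ddit4 and Vegfa (r = 0.68, rho = 0.70, permutation p = 0.00684, adjusted p = 0.0282) in the same direction, and Pgam1, P4ha1, Pfkp, Ldha, Tpi1 and Pgk1 in the opposite one. The share of all genes that correlate with Fkbp5 was not computed, so this count cannot be called particular to the members. For Pgam1 r was -0.91 (rho -0.88) and for P4ha1 -0.89 (rho -0.87), with adjusted p = 0.00248 and 0.00196. The groups are too small (4 or 5 libraries) for a correlation within each. In the 8 CON libraries Ddit4 and Fkbp5 had r = 0.58 and rho = 0.48 (exact permutation p = 0.141, adjusted p = 0.423 over 9 relations), with Ddit4 confined to 7.98 to 15.9 FPKM there.

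**Figure D5:**
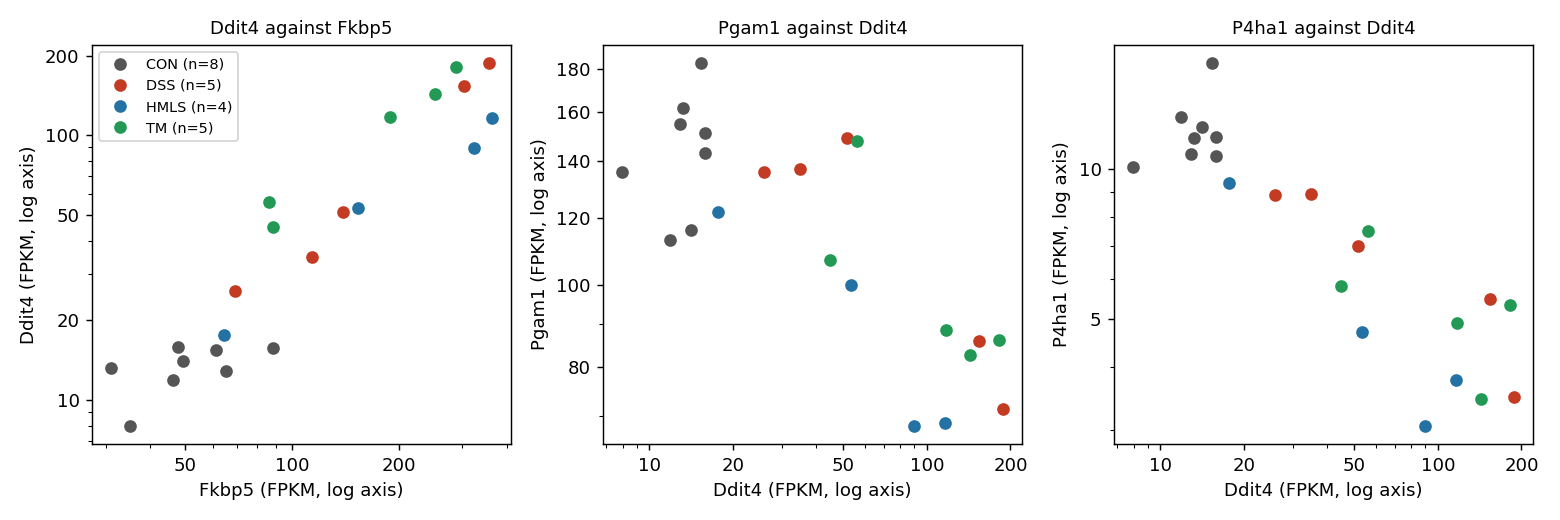
Ddit4 against Fkbp5, and Pgam1 and P4ha1 against Ddit4, in FPKM on log axes, with 1 point per library coloured by group. Among the colitis libraries Ddit4 tends to rise with Fkbp5, and Pgam1 and P4ha1 tend to fall with Ddit4. The groups do not share 1 line, and HMLS tends to lie lower. Ddit4 is at 116 FPKM in HMLS3 (Fkbp5 364) and 188 in DSS5 (Fkbp5 358). Pgam1 is at 100 FPKM in HMLS6 (Ddit4 53.4) and 149 in DSS2 (Ddit4 51.4).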

How the data were processed

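RNA of BALB/c colon was sequenced in 22 libraries by the submitters (Trizol extraction and a TruSeq stranded total RNA kit, per the labels' protocols). The submitters' processing notes name bcl2fastq 2.20, Bowtie (version not given in the sources used here), TopHat2 2.0.13 and Cufflinks 2.2.0, with mm10 as the build, and settings are not given in the sources used here. The authors deposited 1 table of 23997 genes, read here as FPKM because Cufflinks is named and the values carry decimals; the table states no unit. FPKM divides by each library's total, so very abundant genes that rise lower all others. Deposited by the authors beside it were the count of reads in each library and the percent that mapped. Of the genes, 2338 were at 0 in every library, and no 2 libraries were identical (0 pairs).

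Values were tested as log2(FPKM + 1), with a pseudocount of 1, in limma 3.58.1 (R 4.3.3) with trend and robust variance, checked on simulated data. Groups came from the labels, and nothing in them says that each library is 1 mouse, so p-values measure the spread between libraries, which may be technical in part. A gene was kept where 4 or more libraries of the fit held it at 1 FPKM or above. Each group was compared with CON in a fit of its own, and the 3 colitis groups with each other in a joint fit. The 31 members, the further pathway lists and the marker lists were chosen with earlier results of these data known. Log2 differences are printed for members with an unadjusted p under 0.05, for Hif1a, Hk2, Slc2a1, Egln3 and Vegfa in each comparison, and for up to 4 called genes of each further list per comparison, with their values in the other comparisons that called them. Fkbp5, Per1, Tsc22d3 and Eno1b were chosen after their values were seen. Correlations used group-centred log2 values. Gene positions are from GENCODE M21 (GRCm38), to which all 31 members were matched, and promoters from RefSeq (GRCm38.p6).

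The alternatives were a pseudocount of 0.1, no filter, a mean of at least 5 FPKM, median-ratio scaling, no trend, all 4 groups in 1 fit, the replicate number as a block, the mapped share as a covariate, leaving out each library, and, added after seeing the data, leaving out the 2 DSS libraries of lowest mapped share. Same-numbered libraries of TM and DSS correlated after group means were removed at 0.438, 0.265 and 0.143 (replicates 5, 6 and 7). Only TM5 of these had its highest correlation in DSS with the library of its own number. In the other comparisons this held for DSS1, DSS7 and TM5 with CON (0.335, 0.152 and 0.156) and for HMLS6 with DSS (0.318). The remaining same-numbered libraries had their highest correlation elsewhere. The numbers were not taken as pairs in any comparison. All differences printed above, including those of TM against DSS, are from fits without a replicate block, which was run only as an alternative.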

Additional observations from a re-analysis of the deposited data

Results flagged for a closer look

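In 11 of 124 combinations of a member and a group of 4 to 10 libraries, 1 library stood apart from the others by Dixon's test, where chance gives about 1 in 20. In HMLS3, Pgk1 was at 114 FPKM against 149 to 154 in the other HMLS libraries, and Higd1a was at 110 FPKM against 176 to 178. In HMLS8, Car9 was at 20.0 FPKM against 29.6 to 31.6. In TM3, Pgk1 was at 208 FPKM against 123 to 136 in the other TM libraries, and Ero1l was at 30.7 FPKM against 20.5 to 22.9. In DSS5, Pkm was at 243 FPKM against 351 to 406 and Slc16a3 at 1.55 FPKM against 7.34 to 10.8, and in DSS1 Slc2a1 was at 78.5 FPKM against 116 to 131. In CON, Ldha was at 569 FPKM in CON8 against 283 to 387, Adm at 5.26 FPKM in CON7 against 2.32 to 3.44, and Ddit4 at 7.98 FPKM in CON3 against 11.9 to 15.9.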

How the results depend on the processing

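Of 1489 refits of single members' log2 differences, 1300 kept direction and side of the threshold, 142 lost a call, 28 gained one and 19 changed sign. That total includes the comparisons between colitis groups, where no member was called in any fit, so it does not measure how stable the calls were. Calls against CON ranged from P4ha1 in HMLS, kept in 20 of 20 refits, to Ero1l in TM, lost in 16 of 21. With the mapped share as a covariate, DSS against CON had 26 genes called and 0 members higher or lower, HMLS against CON had 3 members higher, and Hif1a changed sign in DSS against CON (-0.11) and HMLS against DSS (0.16), as did Hk2 (0.42), Slc2a1 (0.022) and Vegfa (0.23) in TM against DSS. Without the 2 DSS libraries of lowest mapped share, DSS against CON had 2079 genes called and 7 members higher, and Hif1a was at 0.08 in HMLS against DSS. With a replicate block, genes called were 2176 in DSS, 753 in HMLS and 2000 in TM against CON, members higher 0 in HMLS and 5 in TM, and members lower 1 in HMLS and 1 in TM. The numbers are shared between groups, and what they mean is not given in the labels. In TM against DSS the block turned Hif1a to -0.33 and changed no call. With all 4 groups in 1 fit, 1 member was lower in TM. Without 1 library at a time, members higher in HMLS ran from 3 to 9 and members lower in TM from 1 to 3, and genes called from 0 to 1 in HMLS against DSS and 0 to 3 in HMLS against TM. Log2 differences that crossed 0 in these fits were Egln3 in HMLS against CON (-0.013 to 0.36), Hif1a in HMLS against DSS (-0.19 to 0.13), TM against DSS (-0.14 to 0.17) and HMLS against TM (-0.21 to 0.12), and Vegfa in HMLS against TM (-0.30 to 0.011). The cause of these shifts was not tested. A mean of at least 5 FPKM removed Adm in DSS, Pfkfb3, Slc16a3 and P4ha2 in HMLS, and Pfkfb3 in TM from the fits against CON, and P4ha2 from HMLS against DSS, so these have no value there. Median-ratio scaling moved the median of all genes by -0.03 in each comparison with CON and turned no member's called direction. The share of called genes that were higher went from 51.7% to 44.9% in DSS, 51.2% to 44.7% in HMLS and 54.8% to 47.5% in TM. Depth per gene is unknown, so differences of the scarcest members (Slc16a3, Pfkfb3, P4ha2, Adm) cannot be given a counting error.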

Other observations

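Per1 and Tsc22d3, known like Fkbp5 as genes induced through the glucocorticoid receptor, were looked at after the values of Ddit4 had been seen. Per1, a clock gene, was at 4.77 ± 1.5 FPKM in CON (SD, n = 8), against 24.8 ± 19.3 for DSS (n = 5), 22 ± 16.9 for HMLS (n = 4) and 20.3 ± 6.92 for TM (n = 5). It was highest in DSS5 (57.8 FPKM) and HMLS3 (41.5) and lowest among the colitis libraries in HMLS7 (4.1), which was also lowest in Ddit4. Tsc22d3, which encodes the anti-inflammatory protein GILZ, was at 40.2 ± 14.4 FPKM in CON, against 52.2 ± 17.9 for DSS, 59.6 ± 21.5 for HMLS and 67.5 ± 21.9 for TM, with its highest value in TM7 (103 FPKM), where Ddit4 was at 182 FPKM. Other libraries did not follow Ddit4 in this way. Per1 was at 22 FPKM in TM7. In DSS7, with Ddit4 at 154 FPKM, Per1 was at 24.9 and Tsc22d3 at 52.1. In CON4 Tsc22d3 was at 68.5 FPKM with Ddit4 at 13.2. The relation of Per1 and Tsc22d3 to Ddit4 was not tested. Clock hour at sampling and hormone levels are not given in the sources used here.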
